A study of Homo sapiens with 15 samples.

Results

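The 10 genes described here are MYOCD, SRF, SMYD1, SMARCD3, HOPX, ZFPM2, MEF2A, MEF2D, PRDM16 and HDAC9, a hand-picked set of transcriptional coactivators, chromatin cofactors and the DNA-binding factors they work with in heart muscle. Each was taken from the count and TPM tables by its Ensembl identifier, matched to its GENCODE symbol, and all 10 were found among the 48777 genes listed. They were followed in bulk RNA-seq of H1, an established line of human embryonic stem cells, along a cardiac differentiation on a matrix of LN-521 and LN-221, laminins of the stem cell niche and of heart muscle. Each of days 0, 4, 9, 11 and 20 had 3 libraries, all of this line, and other arms were not analysed here. Day 0 held undifferentiated cells in stem cell medium, although the deposited sample table lists LN-521 alone for them. The treatment protocol placed the Wnt activator CHIR99021 on day 4 and the Wnt inhibitor IWP2 on day 7, whereas the growth protocol placed CHIR99021 on days 1 and 3 and IWP2 on day 5, and whether the day 4 libraries preceded or followed CHIR99021 was not stated. Libraries are named by their titles, as replicates 1, 2 and 3 of day 0, plates 1, 2 and 5 of day 4, plate 2, plate 6 and an unnumbered library of day 9, plates 2, 5 and 6 of day 11, and plate 2, library 2_3 and plate 6 of day 20. Values per library are given in these orders throughout. The title of library 2_3 also gives plate 2, the number of another day 20 library. The labels do not say whether these libraries came from separate differentiations, while the methods give 3 biological replicates per time point.

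Serum response factor (SRF) binds the CArG box, a short AT-rich element ahead of contractile and growth-response genes, and what it activates depends on its partner: myocardin (MYOCD) directs it to cardiac and smooth muscle genes, while ternary complex factors direct it to immediate early genes. MEF2 factors bind a related AT-rich element and are held silent by class IIa histone deacetylases such as HDAC9. SWI/SNF (BAF) remodelling complexes, histone methyltransferases and cofactors of GATA factors then open or close the chromatin on which these regulators act during formation of the heart.

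Library totals ran from 11990302 to 33469703 counts (median 22867831). Cardiomyocyte markers (TNNT2, ACTN2, MYH6, MYH7, MYL7, TNNI1, TTN and NKX2-5) summed to at most 17.7 TPM in any library of days 0 and 4, to 242 to 1352 TPM on day 9, to 3968 to 21176 TPM on day 11 and to 5579 to 24268 TPM on day 20. Markers of other cells were high beside them, with endoderm or liver markers at 850 to 22623 TPM and mesenchymal markers at 1212 to 24452 TPM on day 20. Of the skeletal muscle markers, MYF5 was listed at 0 in every day 11 library, and the 4 of them summed to at most 4.64 TPM in any library but 2_3. Library 2_3 stood apart, with an RNA integrity number of 6.1 against 8.8 to 10 elsewhere, and it held reads of 251 of 252 long protein-coding genes that were silent on days 0 to 11, at a median of 3.05 TPM. Plate 6 of day 20 held reads of 169 of these genes at a median of 0.152 TPM. Replicate 3 of day 0 and plate 2 of day 9 had the lowest unique mapping, at 35% and 46%. A single gene without a symbol held 20.0% and 17.0% of their TPM, against at most 2.54% for the top gene of any other library. As TPM add to a fixed sum, the TPM of other genes are lowered in these libraries.

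Promoter sequence bears on the SRF and MEF2 axis, so the 250 bases ahead of RefSeq transcription starts (GRCh38.p14) were searched on both strands for the CArG box, the MEF2 site and GATAA, the core of the GATA motif, none of which overlapped another in these windows. Of the 10 genes, 7 had an entry there, with 17 starts in all, and MYOCD, ZFPM2 and PRDM16 had none. The window of the first SRF start, chr6:43171019-43171268 on the plus strand, held 2 CArG boxes, at positions -30 to -21 and -10 to -1 counted back from the start, and it is shown with both in capitals. The window of SMYD1, the gene with the largest increase of the set, chr2:88067575-88067824 on the plus strand, held none of the 3 motifs and is shown for comparison.
SRF: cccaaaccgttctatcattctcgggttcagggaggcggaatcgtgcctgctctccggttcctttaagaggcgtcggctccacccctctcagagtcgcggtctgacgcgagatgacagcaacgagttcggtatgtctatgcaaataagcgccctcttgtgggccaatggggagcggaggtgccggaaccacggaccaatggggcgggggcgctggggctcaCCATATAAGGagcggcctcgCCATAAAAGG
SMYD1: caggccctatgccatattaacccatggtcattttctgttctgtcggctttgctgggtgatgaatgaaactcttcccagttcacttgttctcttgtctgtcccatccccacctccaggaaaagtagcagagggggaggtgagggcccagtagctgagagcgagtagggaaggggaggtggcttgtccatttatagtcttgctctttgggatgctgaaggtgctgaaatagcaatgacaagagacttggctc
A MEF2 site lay ahead of the second MEF2A start, and the 30 bases around it, chr15:99565951-99565980 on the plus strand, carry the site in capitals.
MEF2A: ggcttgtctcCTAAAAATAGccccggtgtg
Of 35116 promoter windows of the same length, 1.16% held a CArG box, 20.4% GATAA and 2.80% a MEF2 site. Starts of SMARCD3, MEF2A and HDAC9 had GATAA ahead of them. These are matches of letters only.

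**Figure D1:**
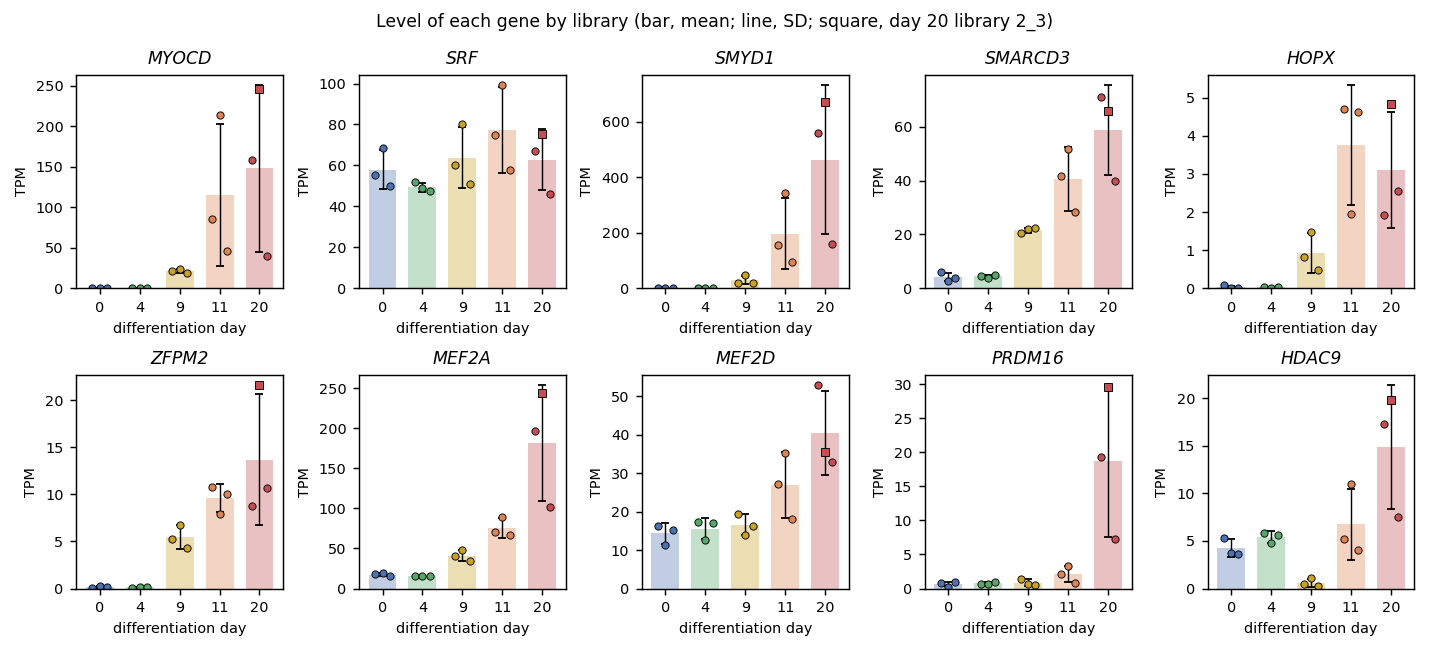
Deposited TPM of each gene on days 0, 4, 9, 11 and 20, with a point per library, the bar at the mean of 3 libraries, the line at 1 SD and the square marking library 2_3. SMYD1, MYOCD, SMARCD3, ZFPM2, HOPX and MEF2A stood higher in every day 9 library than in any day 4 library, HDAC9 stood lower, and SRF stayed between 46.2 and 99.3 TPM in all 15 libraries.

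Neighbouring days were compared with edgeR's quasi-likelihood test on counts, with p-values adjusted by Benjamini and Hochberg's method across the genes tested and called under 0.05. Log2 fold changes are given with their standard errors (SE). Day 4 was first set against day 0. Of 20964 genes tested by edgeR, 0.0% passed in either direction, with 741 at an unadjusted p under 0.05, and DESeq2 also called 0 genes, with 792 unadjusted. No member passed, and none of the 8 tested had an unadjusted p under 0.05. Their log2 fold changes ran from -0.84 (SE 0.50, edgeR adjusted p = 0.885) for MYOCD to 0.28 (SE 0.17, edgeR adjusted p = 0.885) for HDAC9. HOPX and ZFPM2 had too few reads on both days to be tested.

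Day 9 against day 4 was the interval in which most of the set moved. Of the 10 members 6 rose and 1, HDAC9, fell, in a comparison in which 24.3% of the 21252 genes tested were called higher and 24.7% lower. The TPM ranges of the 2 days were apart for these same 7 members, against 58.0% of all genes tested. In bulk libraries a larger share of expressing cells and more RNA per cell cannot be told apart, which holds for every change below. From day 9 to day 11, 3 members rose (SMYD1, MEF2A and HDAC9), with 1.39% of 20679 genes called higher and 1.0% lower, and the ranges were apart for 7 members, against 22.1% of genes. From day 11 to day 20, PRDM16 alone passed, with 1.12% of 21398 genes called higher and 0.435% lower. Across the whole course, day 20 against day 0, a comparison that shares its libraries with the others, 9 members were higher and SRF did not pass, with 16.1% of 21988 genes called higher and 11.3% lower. Without library 2_3 the counts were 0 members from day 11 to day 20 and 9 members from day 0 to day 20, and without any 1 of the day 0 libraries the last count was 7.

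**Figure D2:**
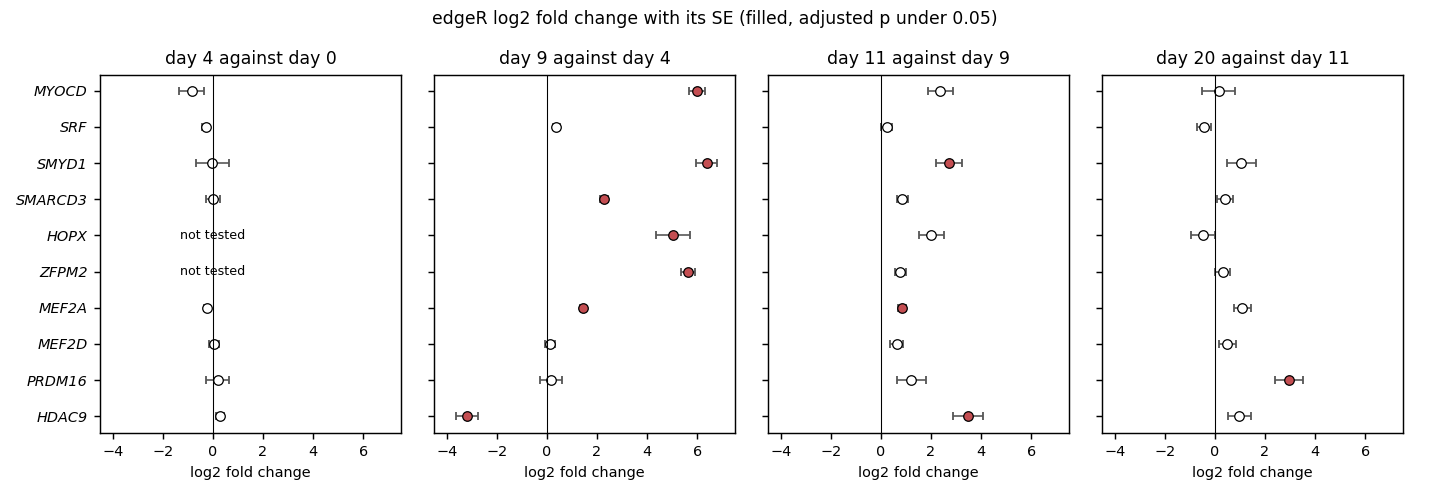
Log2 fold change of each gene between neighbouring days (horizontal axis) from edgeR on 6 libraries per comparison, with its standard error as the line and filled points past an adjusted p of 0.05. The filled points are 7 in day 9 against day 4, 3 in day 11 against day 9 and 1 in day 20 against day 11.

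SRF, on chromosome 6 from 43171269 to 43181506, was the most abundant member through day 9. It stood at 55.1, 68.5 and 50.1 TPM on day 0, at 51.7, 49.1 and 47.4 TPM on day 4, and at 60.4, 80.3 and 50.8 TPM on day 9. On day 11 it stood at 74.9, 99.3 and 57.7 TPM and on day 20 at 67.0, 75.4 and 46.2 TPM. The ranges of neighbouring days overlapped throughout. The closest comparison to the threshold was day 9 against day 4 (log2 fold change 0.38, SE 0.14, edgeR adjusted p = 0.0542), and day 20 against day 0 gave -0.16 (SE 0.25, edgeR adjusted p = 0.688).

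MYOCD, the muscle-restricted coactivator of SRF, lies on chromosome 17 from 12665890 to 12768949. It stood at 0.406, 0.975 and 0.348 TPM on day 0, at 0.163, 0.511 and 0.365 TPM on day 4, and at 21.2, 24.2 and 18.5 TPM on day 9. Every day 9 library was far above every earlier one, and the rise passed the test (log2 fold change 6.00, SE 0.32, edgeR adjusted p = 7.02e-06). On day 11 MYOCD stood at 86.1, 214 and 46.4 TPM and on day 20 at 158, 245 and 39.9 TPM. All day 11 libraries were above day 9 but spread widely, with plate 5 highest and plate 6 lowest, and the difference did not pass (log2 fold change 2.37, SE 0.51, edgeR adjusted p = 0.0640). Its adjusted p over the alternative settings ran from 1.06e-05 to 0.279. Days 11 and 20 overlapped, and the plate 6 library of day 20 lay below the whole day 11 range. Some of the exon sequence of MYOCD is shared with an antisense RNA, ARHGAP44-AS1, and no source used here says whether counting used strand.

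The ratio of MYOCD to SRF, both in TPM, stood at no more than 0.0142 in the libraries of days 0 and 4 and at 0.352, 0.301 and 0.364 on day 9. It was 1.15, 2.15 and 0.804 on day 11 and 2.36, 3.25 and 0.863 on day 20, so that MYOCD stood above SRF in 4 libraries, those with the 4 highest sums of cardiomyocyte markers. MYOCD belongs to a family of SRF coactivators with MRTFA and MRTFB, which respond to actin dynamics in many cell types. Mean levels of MRTFA were 25.7 ± 4.16 and 28.7 ± 6.96 TPM on days 0 and 20 (SD, n = 3), and those of MRTFB were 7.22 ± 0.552 and 17.7 ± 3.79 TPM (SD, n = 3). The share of MYOCD in the summed TPM of these 3 genes was 1.06% to 2.90% on day 0, 37.5% to 40.1% on day 9, 47.5% to 83.8% on day 11 and 49.2% to 85.8% on day 20.

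Genes known to respond to SRF were counted in 3 lists chosen with earlier results of these data known. Among cardiac targets, 10 of 15 tested rose and 0 fell from day 4 to day 9, with a list median of 2.60 on the log2 scale against 0.01 for all genes, and 10 of 17 rose from day 9 to day 11, with a median of 3.39 against 0.00. The largest of these rises were those of ANKRD1, a stretch-responsive nuclear cofactor (log2 fold change 9.01, SE 0.65), by day 9 and of MYH6, the atrial myosin heavy chain (8.09, SE 0.87), by day 11. Of all genes tested by day 9, 24.3% were called higher and 24.7% lower, and by day 11 1.39% higher. Smooth muscle and cytoskeletal targets gave 7 of 13 higher and 3 lower by day 9, with a median of 1.04 on the log2 scale. ACTA2, smooth muscle actin, rose in both intervals (3.91, SE 0.82, then 4.18, SE 0.80), while MYLK, the smooth muscle myosin kinase, fell by day 9 (-0.98, SE 0.21). Immediate early targets gave 1 higher and 3 lower of 9 by day 9, with a median of 0.11, JUNB being the one that rose (1.08, SE 0.20) and EGR2 the one that fell most (-2.14, SE 0.30), and 0 of 9 passed in edgeR from day 9 to day 11. SRF itself was counted among these 9 genes.

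MEF2A, a MADS-box factor of muscle genes, lies on chromosome 15 from 99565417 to 99716488. Its level was 17.8, 19.3 and 15.04 TPM on day 0, 16.0, 15.1 and 15.3 TPM on day 4, and 34.7 to 47.9 TPM on day 9. It then stood at 70.6, 89.2 and 66.4 TPM on day 11 and at 197, 245 and 102 TPM on day 20. Each of the last 3 days was wholly above the day before it. The rises to day 9 (log2 fold change 1.42, SE 0.12, edgeR adjusted p = 4.21e-05) and to day 11 (0.83, SE 0.16, edgeR adjusted p = 0.0474) passed, and that to day 20 did not (1.09, SE 0.33, edgeR adjusted p = 0.142). The call to day 11 held in 3 of 16 alternatives with the same threshold, and in 0 of the 6 fits that left a library out. Exons of LYSMD4 on the opposite strand overlap those of MEF2A.

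MEF2D, its close relative, lies on chromosome 1 from 156463727 to 156500779 and was flat through day 9. It stood at 16.4, 11.4 and 15.3 TPM on day 0, at 17.2, 12.6 and 17.0 TPM on day 4, and at 19.4, 14.0 and 16.2 TPM on day 9. On day 11 it was at 27.2, 35.2 and 18.2 TPM and on day 20 at 52.9, 35.4 and 33.0 TPM. No comparison of neighbouring days passed. In TPM every day 20 library was above every day 0 library. In TMM-scaled CPM library 2_3 stood at 29.9, below the 31.8 of replicate 3 of day 0. Day 20 was higher than day 0 in the test (log2 fold change 1.25, SE 0.34, edgeR adjusted p = 0.0277). This call held in 8 of 14 alternatives with the same threshold. It was lost without a filter (edgeR adjusted p = 0.149), without any 1 of the 3 day 0 libraries (edgeR adjusted p = 0.117, 0.125 and 0.105), and without plate 2 (edgeR adjusted p = 0.0868) or plate 6 (edgeR adjusted p = 0.0590) of day 20.

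The makeup of the MEF2 family shifted as well. MEF2A and MEF2D took 48.9% to 62.6% and 36.8% to 49.6% of the family TPM on day 0. MEF2C, the family member tied to the early heart field, had means of 0.225 ± 0.0105 and 10.7 ± 0.878 TPM (SD, n = 3) on days 4 and 9 and rose in the test (log2 fold change 5.59, SE 0.19), then rose again by day 11 (2.17, SE 0.35). By day 20 MEF2A held 63.5% to 70.8%, MEF2D 10.2% to 21.7% and MEF2C 10.7% to 19.4%.

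HDAC9, a class IIa deacetylase that binds MEF2 factors and represses their targets, lies on chromosome 7 from 18086949 to 19002416 and was the only member to fall. It stood at 5.36, 3.76 and 3.68 TPM on day 0 and at 5.87, 4.74 and 5.60 TPM on day 4, dropped to 0.505, 1.07 and 0.225 TPM on day 9, and was at 5.16, 11.0 and 4.07 TPM on day 11. On day 20 it stood at 17.3, 19.8 and 7.47 TPM. The day 9 libraries were below every other library of the course, with 42, 98 and 28 reads counted. Both the fall (log2 fold change -3.20, SE 0.44, edgeR adjusted p = 0.0008) and the return by day 11 (3.47, SE 0.60, edgeR adjusted p = 0.0359) passed, and day 20 was above day 0 (1.52, SE 0.34, edgeR adjusted p = 0.0138), a call that held in 10 of 14 alternatives with the same threshold and was lost without a filter (edgeR adjusted p = 0.0790) and without any 1 of the 3 day 0 libraries (edgeR adjusted p = 0.0576, 0.0775 and 0.0896). The fall held in 15 of 15 alternatives. The return held in 10 of 16, and with 1 library left out it held in 1 of 6 fits, that without plate 6 of day 9 (edgeR adjusted p = 0.0242).

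The other class IIa deacetylases did not fall in the test by day 9. HDAC4 stood at 11.0 ± 0.203, 9.99 ± 1.29 and 10.9 ± 1.55 TPM (SD, n = 3) on days 4, 9 and 11, and HDAC5 at 80.0 ± 24.1, 72.2 ± 5.39 and 90.0 ± 15.4 TPM (SD, n = 3). HDAC7 rose slightly by day 9 (log2 fold change 0.54, SE 0.11). The share of HDAC9 in the class was 4.01% to 5.14% on day 4, 0.194% to 0.948% on day 9, 3.23% to 6.36% on day 11 and 4.89% to 18.7% on day 20.

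**Figure D3:**
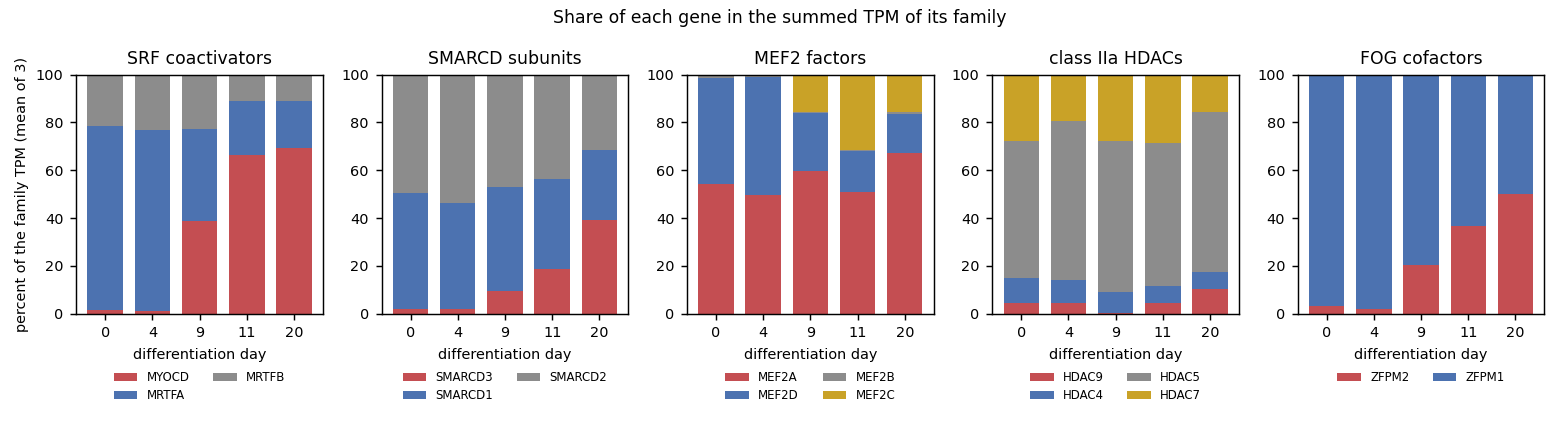
Mean share (percent, 3 libraries per day) of each gene in the summed TPM of its family on days 0, 4, 9, 11 and 20. MYOCD and SMARCD3 took 1.72% and 2.14% of their families on day 0 and 69.4% and 39.2% on day 20, ZFPM2 took 3.46% on day 0 and 39.8% to 61.0% in the libraries of day 20, and the share of HDAC9 was lowest on day 9, at 0.527%.

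SMYD1, a muscle-specific SET domain methyltransferase that is needed for sarcomere assembly, lies on chromosome 2 from 88067825 to 88113384. It was near the floor on day 0, at 0.627, 0.0784 and 0.336 TPM from 20, 3 and 6 reads, and on day 4, at 0.289, 0.292 and 0.458 TPM. It stood at 20.2, 46.9 and 20.5 TPM on day 9, at 154, 341 and 94.9 TPM on day 11 and at 559, 671 and 160 TPM on day 20. On day 20 it was the most abundant member, though its lowest library lay inside the day 11 range. The rises to day 9 (log2 fold change 6.38, SE 0.41, edgeR adjusted p = 1.95e-05) and to day 11 (2.72, SE 0.52, edgeR adjusted p = 0.0482) passed, and the whole course gave 10.11 (SE 0.89, edgeR adjusted p = 0.000387). The call to day 11 held in 4 of 16 alternatives and was lost without plate 2 or the unnumbered library of day 9 (edgeR adjusted p = 0.220 and 0.199) and without plate 2 or 5 of day 11 (edgeR adjusted p = 0.104 and 0.0556). The difference between days 11 and 20 did not pass (1.06, SE 0.59, edgeR adjusted p = 0.426).

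The myosin chaperone UNC45B, listed with SMYD1 as a partner, rose in the same intervals (log2 fold change 7.88, SE 0.28, by day 9 and 2.78, SE 0.46, by day 11). TRIM63, the muscle ubiquitin ligase MuRF1, rose by day 11 (3.45, SE 0.65) and again by day 20 (4.24, SE 0.67). In the SMYD family itself, SMYD1 took 0.392% to 0.635% of the TPM on day 4, 23.1% to 35.7% on day 9 and 66.1% to 86.1% on day 20. SMYD2 rose by day 9 (2.69, SE 0.18) and SMYD5, the most abundant member at the start, fell (-0.54, SE 0.12).

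SMARCD3 encodes BAF60c, the BAF subunit of heart and muscle progenitors, and lies on chromosome 7 from 151238764 to 151277896 on the minus strand. It stood at 4.69, 3.81 and 4.93 TPM on day 4, at 20.5, 21.9 and 22.3 TPM on day 9, at 41.7, 51.9 and 28.2 TPM on day 11 and at 71.0, 65.7 and 39.7 TPM on day 20. Day 0 had stood at 5.91, 2.87 and 4.02 TPM. The 3 libraries of day 9 lay close together and far above day 4, and this rise passed (log2 fold change 2.29, SE 0.15, edgeR adjusted p = 1.23e-05). Day 11 was above day 9 in every library without passing (0.85, SE 0.21, edgeR adjusted p = 0.0911), and days 11 and 20 overlapped. Exons of CHPF2 on the opposite strand cover 1321 bases of SMARCD3 exon sequence.

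SMARCD1, SMARCD2 and SMARCD3 are alternative subunits for the same place in the BAF complex. SMARCD1 had means of 98.8 ± 17.4 and 44.6 ± 5.32 TPM (SD, n = 3) on days 0 and 20, a fall that passed (log2 fold change -1.38, SE 0.29, edgeR adjusted p = 0.00935). Those of SMARCD2 were 101 ± 16.1 and 48.7 ± 24.0 TPM (SD, n = 3). SMARCD3 took 1.23% to 2.83% of the 3 on day 0, 9.11% to 10.3% on day 9, 12.9% to 26.1% on day 11 and 25.8% to 50.4% on day 20. Of 31 BAF and PBAF subunits tested, 9 rose and 5 fell by day 9, with a median of 0.18 on the log2 scale against 0.01 for all genes, of which 24.3% were called higher and 24.7% lower. DPF3, a reader of acetylated histones in muscle BAF complexes, rose most (7.05, SE 0.23), and the neural subunit ACTL6B fell most (-2.85, SE 0.51). By day 20 against day 0, 4 were higher and 7 lower, where 16.1% and 11.3% of all genes were.

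ZFPM2 (FOG2), a zinc finger cofactor that binds GATA4 and tempers it, lies on chromosome 8 from 104590733 to 105804539. It was counted 4 to 15 times per library on days 0 and 4, at no more than 0.232 TPM. It stood at 5.26, 6.78 and 4.26 TPM on day 9, at 10.8, 7.93 and 10.0 TPM on day 11 and at 8.80, 21.6 and 10.7 TPM on day 20. The rise to day 9 passed (log2 fold change 5.63, SE 0.29, edgeR adjusted p = 4.27e-06), and day 11, although above day 9 in every library, did not pass (0.78, SE 0.21, edgeR adjusted p = 0.116). The high day 20 value was that of library 2_3.

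GATA factors rose in the same interval, in which 24.3% of all genes tested were called higher. GATA4 (log2 fold change 9.78, SE 0.34) and GATA6 (9.70, SE 0.35) had the largest rises by day 9 among the 8 GATA, FOG and cardiac factors listed. All 8 passed, a count that takes in the FOG family. GATA4 went from 0.0756 to 0.245 TPM on day 4 to 137 to 189 TPM on day 9 and stood at 103 to 209 TPM on day 20. Within the FOG pair, ZFPM1 led on day 9 with 72.5% to 84.2%, and ZFPM2 took 39.8% to 61.0% on day 20.

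HOPX, a small homeodomain protein that does not bind DNA itself and recruits class I deacetylases against SRF, was the least abundant member on days 0, 4 and 20. The gene lies on chromosome 4 from 56647989 to 56681877. It was counted 4, 0 and 0 times on day 0 and 2, 0 and 2 times on day 4. A count of 0 allows up to 3 counts, or 0.0896, 0.250 and 0.131 CPM in replicates 2 and 3 of day 0 and plate 2 of day 4, counting error alone. It stood at 0.809, 1.49 and 0.471 TPM on day 9, at 4.71, 1.94 and 4.64 TPM on day 11 and at 1.93, 4.83 and 2.55 TPM on day 20.
The rise of HOPX to day 9 passed (log2 fold change 5.04, SE 0.68, edgeR adjusted p = 0.000475), a fitted value that rests on the few reads of day 4. Day 11 was above day 9 in every library and did not pass (2.01, SE 0.49, edgeR adjusted p = 0.0897), and day 20 overlapped day 11. In library 2_3 its 4.83 TPM lay close to the 3.05 TPM median of otherwise silent genes. HDAC3, a class I deacetylase, fell slightly by day 9 (-0.72, SE 0.10), and HDAC1 and HDAC2 were lower on day 20 than on day 0 (-1.02, SE 0.29, and -0.91, SE 0.26).

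PRDM16, a zinc finger regulator of the compact ventricular wall, lies on chromosome 1 from 3069168 to 3438621 and was the latest to rise. It stood at 0.753, 0.271 and 0.924 TPM on day 0, at 0.643, 0.687 and 0.979 TPM on day 4, at 1.43, 0.675 and 0.457 TPM on day 9 and at 2.16, 3.27 and 0.867 TPM on day 11. On day 20 it stood at 19.2, 29.6 and 7.24 TPM. All day 20 libraries were above all earlier ones, while days 0 to 11 overlapped with each other. Day 20 was higher than day 11 (log2 fold change 2.96, SE 0.57, edgeR adjusted p = 0.0497) and than day 0 (4.51, SE 0.64, edgeR adjusted p = 0.00221). The first of these calls held in 4 of 16 alternatives, with adjusted p from 6.38e-05 to 0.246. It was lost without library 2_3 (edgeR adjusted p = 0.0809) or plate 2 of day 20 (edgeR adjusted p = 0.0658), at log2 fold changes of 2.67 and 2.78, and without plate 2, 5 or 6 of day 11 (edgeR adjusted p = 0.246, 0.116 and 0.174).

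Its family was not uniform. MECOM, the nearest paralog of PRDM16, rose by day 9 (log2 fold change 3.71, SE 0.23) and by day 11 (2.03, SE 0.19) and fell by day 20 (-1.59, SE 0.31, edgeR adjusted p = 0.0497), so that it peaked on day 11 at 14.4 to 19.1 TPM, when PRDM16 was at most 3.27 TPM. PRDM14, a pluripotency regulator, fell by day 9 (-6.37, SE 0.19) and PRDM6, a smooth muscle regulator, rose (7.05, SE 0.42). From day 4 to day 9, 6 of the 13 PRDM genes tested were higher and 4 lower, with a median of 0.27 on the log2 scale, where 24.3% and 24.7% of all genes were.

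By mean TPM the members ran SRF, MEF2A, MEF2D on day 0, with SRF apart from MEF2A and the others overlapping. On day 9 the order was SRF, MEF2A, SMYD1, SMARCD3, MYOCD and MEF2D, in which SRF alone stood apart from its neighbour. On day 11 it was SMYD1, MYOCD, SRF and MEF2A, each overlapping the next, and on day 20 SMYD1, MEF2A, MYOCD, SRF, SMARCD3 and MEF2D, again each overlapping the next. Between days 0 and 20 the mean of SMYD1 went from 0.347 to 463 TPM, a ratio of 1334, and that of MYOCD from 0.577 to 148 TPM, a ratio of 256. The same ratio was 13.8 for SMARCD3, 10.4 for MEF2A, 2.82 for MEF2D and 1.08 for SRF.

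The libraries of 1 day differed in how much cardiomyocyte RNA they held, and the members' order among them was compared with that of the markers. On day 9 the library with the highest markers, plate 6, was highest for 7 of 10 members, and the unnumbered library, with the lowest, was lowest for 7. On day 11 plate 6 was lowest and plate 5 highest in summed cardiomyocyte markers, and 8 of 10 members had their lowest value in plate 6 and 8 their highest in plate 5. HOPX and ZFPM2 were the exceptions, both lowest in plate 5. Mesenchymal markers were also lowest of the 3 there (1247 TPM, against 3420 and 7368). So were endoderm or liver (681 TPM), epicardial (4.98 TPM), epithelial (3684 TPM) and pluripotent markers (881 TPM). Endothelial (167 TPM), smooth muscle (940 TPM) and skeletal muscle markers (1.505 TPM) were highest of the 3 in plate 5, and neural markers lay between. On day 20 plate 6 was lowest in the cardiomyocyte markers and, in TPM, in 8 of 10 members, again all but HOPX and ZFPM2. Both had their highest TPM in library 2_3, where mesenchymal markers were lowest of the 3 (1212 TPM, against 3203 and 24452). In TMM-scaled CPM SRF, SMARCD3 and MEF2D were instead lowest in library 2_3, at 41.8, 45.1 and 29.9. The highest TPM of day 20 did not follow the cardiomyocyte markers. Plate 2 was highest in them and in 2 of 10 members, while library 2_3 was highest in 8. This order depended on the unit. In TMM-scaled CPM MYOCD, SRF, SMYD1, SMARCD3, MEF2A, MEF2D, PRDM16 and HDAC9 were highest in plate 2. HOPX was then highest in plate 6 and ZFPM2 in library 2_3. What these markers contribute to the differences between days was not tested.

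**Figure D4:**
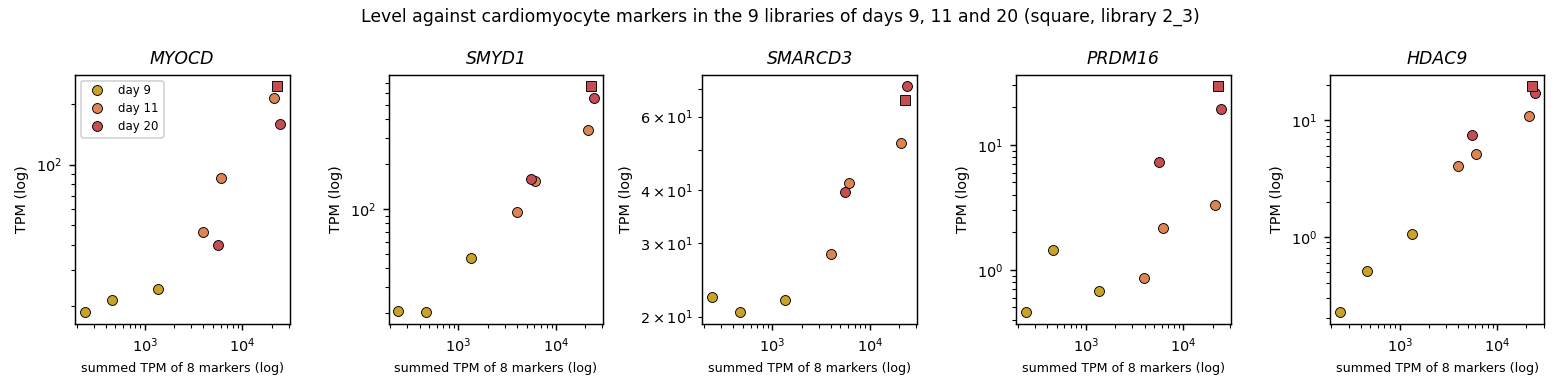
TPM of 5 members (vertical, log scale) against the summed TPM of 8 cardiomyocyte markers (horizontal, log scale) in the 9 libraries of days 9, 11 and 20, with the square for library 2_3. HDAC9 runs along the markers from 0.225 to 19.8 TPM across the 3 days, and the day 20 points of PRDM16 lie above the day 11 points at similar marker levels.

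Levels were also set against the same markers. HDAC9 per 1000 TPM of cardiomyocyte markers stood at 0.789 to 1.09 TPM on day 9, 0.521 to 1.03 TPM on day 11 and 0.713 to 1.34 TPM on day 20. SMYD1 stood at 34.7 to 84.4, 16.1 to 25.2 and 23.0 to 29.5 TPM on the same scale. Of the 10 members 8 were lower per marker in every library of day 11 than in any of day 9, all but HDAC9 and HOPX. MYOCD went from 17.9 to 76.4 TPM on day 9 to 10.1 to 14.1 TPM on day 11. The marker sum itself rose from 242 to 1352 TPM to 3968 to 21176 TPM, so any gene that rose less fell on this scale. SRF, whose TPM ranges overlapped, was among the 8, at 59.4 to 210 and then 4.69 to 14.5 TPM. The share of all genes that fell in this way was not computed, so the count cannot be read as a trait of the members. PRDM16 per marker stood at 0.499 to 3.08 TPM on day 9, 0.155 to 0.354 TPM on day 11 and 0.793 to 1.30 TPM on day 20, so that day 20 was apart from day 11 and overlapped day 9. These ratios are descriptions, and no test was made on them.

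The genes whose log2 CPM ran most nearly parallel to each member over the 15 libraries were named by Pearson's r among 14913 protein-coding genes, with days, cell mixture and depth shared by all points. SMYD1 and SMARCD3 were nearest to each other (r = 0.995), followed for SMYD1 by MYL7 (0.994), the atrial light chain, and CAMK2A (0.992). MYOCD was nearest to RCSD1 (0.994), MYLK3 (0.987) and UNC45B (0.987), and MEF2A to TTN (0.988), MTUS2 (0.986) and LMOD2 (0.986). ZFPM2 ran with SH3TC1 (0.988), ADAMTS9 (0.987) and SMYD2 (0.985), and HOPX with ZNF704 (0.981), ADD1 (0.981) and CLIP4 (0.979). The nearest genes were CPEB3 (0.973), TNS1 (0.968) and C14orf180 (0.963) for PRDM16, ITGB3 (0.967), ECH1 (0.958) and SPEG (0.955) for MEF2D, and SORBS2 (0.951), AFDN (0.934) and HERC1 (0.926) for HDAC9. SRF had no neighbour as close, with GCLC (0.864), CLASRP (0.855) and NUP42 (0.841).

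The calls between days 9 and 11 moved with the method. DESeq2 called 7 members higher, with 3.89% of its 23640 adjusted genes higher, adding MYOCD, SMARCD3, HOPX and ZFPM2 to the 3. With the plate number as a block 6 members passed, with 5.66% of genes higher, and SMYD1 was lost (adjusted p = 0.339 in edgeR). Days 9 and 11 share plate numbers 2 and 6 only. The unnumbered library of day 9 and plate 5 of day 11 have no partner in that fit, so its differences rest on the other libraries. No member passed without plate 2 of day 9, without the unnumbered library of day 9 or without plate 2 of day 11, and MEF2A did not pass in any of the 6 fits that left a library out.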

How the data were processed

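Bulk RNA-seq of H1 on 5 days, 3 libraries each, was analysed. Days are those of the labels; the methods have day 7 in place of day 9. Per the labels and the methods, total RNA without ribosomal RNA was sequenced in pairs, aligned to GRCh38 (Ensembl 79) with STAR 2.5.2b and counted with featureCounts 1.5.1 (versions from the submitters' processing notes). The authors dropped ribosomal and mitochondrial genes and deposited raw counts per gene. TPM were also deposited, scaled by a gene length not given in the sources used here. A deposited sample table gives lane, RNA integrity as a score and unique mapping as a fraction of reads.

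Tests used edgeR 4.0.16 (R 4.3.3; filterByExpr, minimum count 10 and minimum total 15; TMM; robust quasi-likelihood) on the 6 libraries of both days compared, two-sided, adjusted by Benjamini and Hochberg's method over the genes tested. The SE is the absolute log2 fold change over the root of F. Totals of 11990302 to 33469703 counts limit low genes, and limits for counts of 0 cover counting error only. GENCODE v44 gave symbols (46872 of 48777 identifiers) and coordinates, and RefSeq GRCh38.p14 the promoters. Tables were handled in Python 3.11.15 with pandas 2.3.3.

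Alternatives were DESeq2 1.42.0, upper-quartile scaling, library size alone, no filter, a mean of at least 1 CPM, one fit of 15 libraries, limma 3.58.1 on log2(TPM + 1) and log2(TPM + 0.1), a threshold of 0.01, leaving out each library, the plate number as a block and, chosen after seeing the data, the lane as a block. Members, lists and the naming rule (members, their paralogs, up to 4 called genes per list and comparison by size, and 3 nearest genes by r) were chosen with earlier results of these data known, and MYLK was named after its values were seen. The methods were tested on simulated counts.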

Additional observations from a re-analysis of the deposited data

How the results depend on the processing

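Of the recomputed member fold changes, 664 kept their direction and their side of the threshold, 59 lost and 18 gained a call, and 28 changed sign, each in a gene not called in that comparison. From day 9 to day 11, where 3 members passed, 0 passed at an adjusted p under 0.01, 7 with DESeq2, 6 with the plate number as a replicate block, and 1 each with upper-quartile scaling, library size alone, the filter at a mean of 1 CPM, limma on log2(TPM + 1) or log2(TPM + 0.1) and the lane block. With a library left out the count ran from 0 to 3. From day 11 to day 20, where 1 passed, 2 passed with all 15 libraries in a single fit and 0 under an adjusted p of 0.01, upper-quartile scaling, library size alone, the 1 CPM filter, both limma fits and the plate and lane blocks, and 0 to 1 with a library left out. The cause of these shifts was not tested.

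Signs changed as follows on the log2 scale. For day 4 against day 0, SMYD1 gave 0.0070 with all 15 libraries, 0.017 and 0.20 in the limma fits and -0.60 to 0.83 with a library left out. SMARCD3 gave -0.011 with library size alone and -0.24 to 0.22 with a library left out, where MEF2D ran from -0.13 to 0.23 and PRDM16 from -0.22 to 0.66. For day 9 against day 4, MEF2D ran from -0.045 to 0.29 and PRDM16 from -0.46 to 0.50. SRF gave -0.12 with the plate block for day 11 against day 9, and 0.099 and 0.10 in the limma fits for day 20 against day 0. MYOCD gave -0.0036 with DESeq2, -0.029 without a filter and -0.24 to 0.88 with a library left out for day 20 against day 11. Upper-quartile scaling moved the median of all genes from 0.07 to 0.18 for day 20 against day 11, and library size alone from 0.11 to 0.23 for day 20 against day 0. The labels do not say that a plate number marks the same plate on different days. After removal of day means, same-numbered libraries correlated with r of 0.142 and 0.382 between days 9 and 11. Between days 11 and 20 these r were -0.174, -0.004 and 0.389. The other library pairs ran from -0.401 to 0.346 between days 9 and 11 and from -0.480 to 0.215 between days 11 and 20. So few values cannot decide whether the numbers mark pairs, and the main fits did not take them as pairs. With the replicate block, 1171 genes rose and 800 fell from day 9 to day 11, against 288 and 207 without it, and 2 rose and 1 fell from day 11 to day 20, against 239 and 93. In these blocked fits a library without a same-numbered partner on the other day does not inform the difference. Days 4 and 9 share only plate 2, and day 0 carries no plate numbers, so no such fit was made there.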
